A study of Homo sapiens with 6 samples.

Results

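Histone deacetylases (HDACs) and the proteins that bring them to chromatin were followed in UM-SCC1 cells given a microRNA mimic. UM-SCC1 is an established line of squamous carcinoma from the head and neck. The set held 10 genes chosen by symbol, HDAC1 to HDAC7, SIN3A, RCOR1 and MTA1, and all 10 were found among the 14959 genes of the expression table. Cells received miR-204-5p mimics (n = 3) or control mimics (n = 3), and RNA was collected 48 h after transfection in independent experiments. The resulting libraries are called mimic libraries and control libraries. The groups shared the cell line and the transfection procedure and differed in the small RNA given, so the comparison asked how added miR-204-5p altered these mRNAs. A mimic is a synthetic double-stranded copy of the miRNA, and its level in the cells is not analysed here. A single cell line at a single time was profiled. Expression is given as FPKM, fragments scaled to transcript length and to the mapped fragments of the library.

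HDACs remove acetyl groups from lysines of histones and other proteins, and deacetylated chromatin is generally less open to transcription. HDAC1 and HDAC2, nuclear class I enzymes, are closely related paralogs that work inside large corepressor complexes. SIN3A is the scaffold of the SIN3 complex, RCOR1 (CoREST) links HDAC1 and HDAC2 to the demethylase KDM1A, and MTA1 is a scaffold of the NuRD remodelling complex. HDAC3, also class I, works with the corepressor NCOR1. Class IIa enzymes (HDAC4, HDAC5 and HDAC7) shuttle between nucleus and cytoplasm and bind MEF2 transcription factors, while the class IIb enzyme HDAC6 is mainly a cytoplasmic tubulin deacetylase. A miRNA generally lowers mRNAs that carry, in the 3'UTR, a match to its seed, the bases at positions 2 to 8.

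The mature miR-204-5p (RefSeq, GRCh38.p14, chr9:70810031-70810052, minus strand, 22 bases) is shown with its seed in capitals, since the sites in the HDAC mRNAs are read against it. The miRNA miR-211-5p carries the same seed.
miR-204-5p: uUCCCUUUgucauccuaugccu

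Matches of 4 kinds were searched on the transcript strand in GENCODE 29 (GRCh38) 3'UTRs of protein-coding transcripts. They were AAAGGGAA (8mer), AAAGGGA (7mer-m8), AAGGGAA (7mer-A1) and AAGGGA (6mer), each site being counted once under its longest form. The sites of 7 or more bases are shown with the match in capitals and 11 bases on either side, read along the transcript. HDAC1 holds 1 in exon 14 (chr1:32333279-32333307, plus strand), RCOR1 holds an 8mer and a 7mer-A1 in exon 12 (chr14:102727186-102727215 and chr14:102730065-102730093, plus strand), HDAC4 holds 1 in exon 27 (chr2:239051761-239051789, minus strand) and SIN3A holds 1 in exon 21 of the transcript that the expression table lists (chr15:75371023-75371051, minus strand). HDAC6 holds 1 in a transcript other than the listed one (chrX:48806100-48806128, plus strand).
HDAC1 7mer-m8: aggtctgggtgAAAGGGAtacttttatgc
RCOR1 8mer: cactgtagcttAAAGGGAAcgtggacctca
RCOR1 7mer-A1: gcattcagaagAAGGGAAggtcagcagag
HDAC4 7mer-m8: ggtgcttatggAAAGGGAtcctgattgat
SIN3A 7mer-m8: cactttttaccAAAGGGAgttaccattgt
HDAC6 7mer-A1: gtgactgagggAAGGGAAgaacagacagc

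Taking the longest 3'UTR per gene, 4 of the 10 members (HDAC1, HDAC4, HDAC6 and RCOR1) had a match of 7 or more bases, against 27.1% of the 14664 genes of the table with an annotated 3'UTR. SIN3A joined them when any 3'UTR was taken, giving 5 of 10 members against 29.2% of genes, because its longest 3'UTR belongs to a 3-exon transcript with 6mers only. The HDAC6 site, a 7mer-A1, lies in a 6-exon transcript (exon 6) and not in the transcript the table lists, which has no annotated 3'UTR. No further match was found in the principal HDAC6 transcripts. In the 3'UTRs of listed transcripts, 4 of 9 members (HDAC1, HDAC4, RCOR1 and SIN3A) had a match of 7 or more bases. The share over 12659 genes was 23.8%. HDAC2 and HDAC5 carried a 6mer only, and no match was found in HDAC3, HDAC7 or MTA1. A match describes the sequence, and whether any of these sites is used was not tested here. For the HDAC1 site, the paper reports that the mimics lowered a luciferase reporter carrying it. Mutation of the site removed that effect in its assay. The paper also reports lower HDAC1 mRNA and protein with the mimics, and more HDAC1 mRNA recovered with the silencing protein Ago2.

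Across all genes, 40.8% (6098) had an adjusted p under 0.05 in limma on log2(FPKM + 1), 16.8% being lower and 23.9% higher in the mimic libraries. Among the members, 6 of 10 passed, 4 lower (HDAC1, SIN3A, RCOR1 and HDAC5) and 2 higher (HDAC2 and HDAC6). The values of both groups did not overlap for 7 of 10 members, the 7th being HDAC4, and for 53.6% of all genes. The median log2 fold change was −0.10 over the members and 0.03 over all genes. With library sums made equal, 2885 genes passed lower and 3080 higher, with a median of 0.0088 over all genes. The size of the excess of higher genes thus depended on scaling. With so many genes past the threshold, the number of members called is not by itself a property of this set, and the results lie in which members moved and by how much. The paper's own test, edgeR, reports fewer differentially expressed genes, and the tests were not compared here. The depth of the libraries is unknown, since the table holds no counts and they could not be recovered from it. While 720 genes were listed at 0 in at least 1 library, no member was. Spearman correlations of libraries were 0.990 to 0.991 within groups and 0.973 to 0.976 between groups. Of 8 epithelial markers, all were in the table, with a summed level of 588 to 684 FPKM in the mimic libraries and 791 to 814 FPKM in the control libraries. Of these, 5 were lower (TP63, KRT14, KRT5, DSP and EPCAM), 2 were higher (CDH1 and KRT6A) and KRT17 did not pass. Their log2 fold changes ran from −1.01 for TP63 (27.4 against 55.9 FPKM) to 0.81 for KRT6A (2.90 against 1.24 FPKM), and the part of this shift in the members' differences was not tested. All 3 endothelial markers in the table, 3 of 4 fibroblast markers (all but COL1A1) and 3 of 5 leukocyte markers (all but CD14 and LYZ) were below 1 FPKM in every library.

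**Figure D1:**
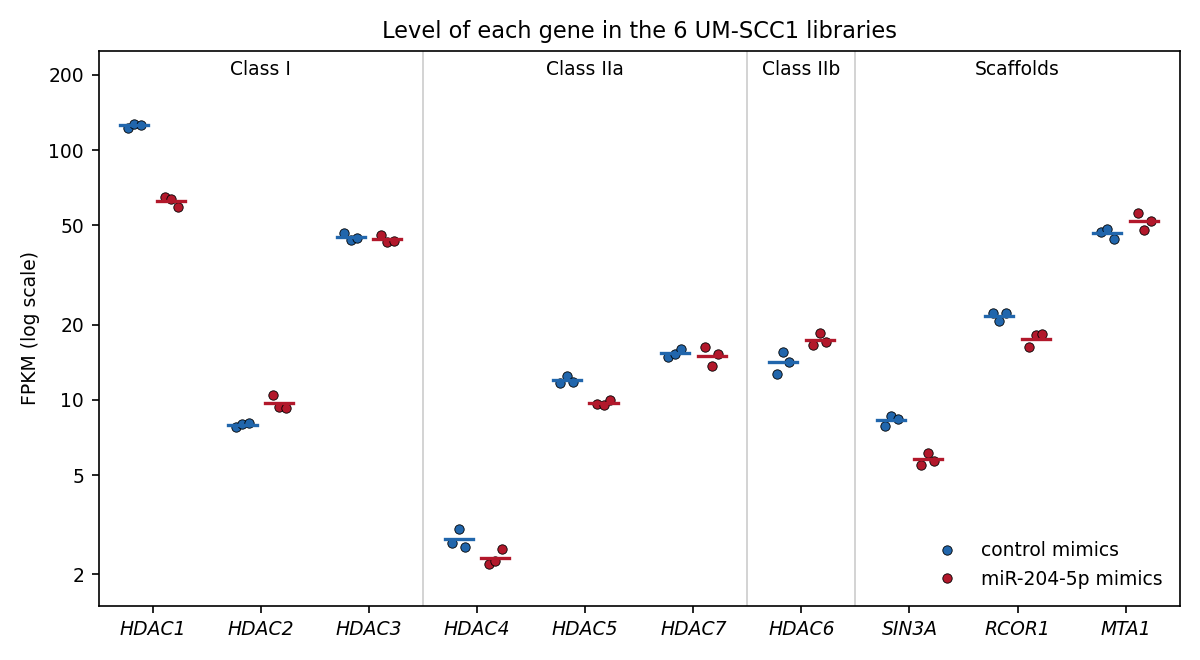
FPKM (vertical axis, log scale) of the 10 genes in each library, with control mimics in blue, miR-204-5p mimics in red, 1 point per library and a bar at the group mean. HDAC1 is the highest of the 10 in both groups and moves from 126 to 62.5 FPKM, while HDAC3 lies at 45.0 and 44.0 FPKM.

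HDAC1 mRNA fell to 49.8% of its control level while its paralog HDAC2 rose and HDAC3 did not pass the test. HDAC1 (ENSG00000116478, chr1:32292086-32333635, plus strand) had 64.8, 63.5 and 59.2 FPKM in the mimic libraries and 123, 127 and 127 FPKM in the control libraries. Every mimic library lay below every control library, with wide separation. The means were 62.5 ± 2.89 and 126 ± 2.49 FPKM (SD, n = 3), and the log2 fold change was −0.995 (95% interval −1.10 to −0.89, limma adjusted p = 4.7e-05). In the order of all log2 fold changes, 0.769% of genes lay lower.

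HDAC2 (ENSG00000196591, chr6:113933028-113971285, minus strand) had 10.5, 9.40 and 9.31 FPKM in the mimic libraries and 7.78, 7.98 and 8.10 FPKM in the control libraries. All the mimic libraries were higher, and the groups did not overlap. Its log2 fold change was 0.26 (95% interval 0.12 to 0.40, adjusted p = 0.0135). The transcript listed for HDAC2 is 9874 bases long with 1464 coding bases, so its FPKM is spread over a long 3'UTR, and how its level would stand on a shorter transcript was not tested.

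HDAC3 (ENSG00000171720, chr5:141620876-141636870, minus strand) had 45.6, 43.0 and 43.4 FPKM in the mimic libraries and 46.5, 43.8 and 44.6 FPKM in the control libraries. The groups overlapped. The log2 fold change was −0.03, with a 95% interval of −0.13 to 0.07 (adjusted p = 0.592), so a change of the size seen for HDAC1 lies outside its interval.

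The balance of the 3 enzymes within each library showed the same shift without reference to library scaling. HDAC1 made up 53.6%, 54.8% and 52.9% of the summed HDAC1, HDAC2 and HDAC3 FPKM in the mimic libraries and 69.3%, 71.1% and 70.6% in the control libraries. The libraries of each group lay within 2 percentage points of each other, and the means differed by 16.6 percentage points (53.8 ± 0.937 against 70.3 ± 0.909, SD, n = 3 each, two-sided exact permutation p = 0.1). With 3 libraries in each group, 0.1 is the smallest p this test can give. HDAC3 went from 25.2% to 37.9% of the sum and HDAC2 from 4.46% to 8.37%, while the sum itself was 116 ± 4.47 FPKM in the mimic libraries and 178 ± 1.28 FPKM in the control libraries. Unlike library scaling, transcript length does not cancel in these shares. The listed lengths were 2124 bases for HDAC1, 9874 for HDAC2 and 1959 for HDAC3, and shares on other lengths were not tested. HDAC8, the fourth class I enzyme, which works outside these complexes, was left out of the sum and had 4.99 and 5.62 FPKM.

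**Figure D2:**
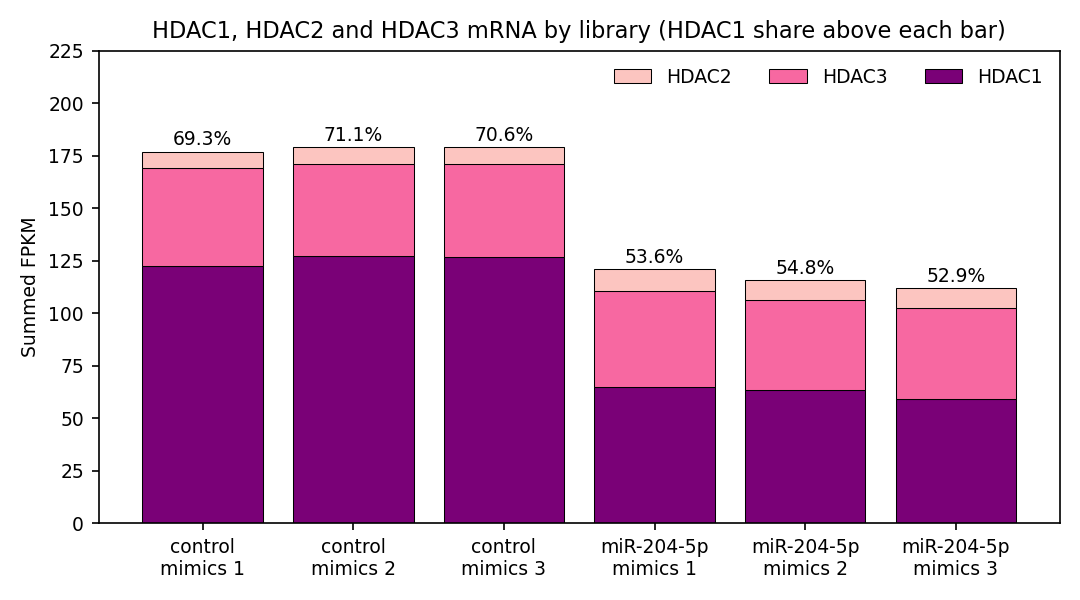
Summed FPKM of HDAC1, HDAC2 and HDAC3 (vertical axis, from 0) in each library, with control mimics on the left, miR-204-5p mimics on the right and the HDAC1 share of the sum above each bar. The HDAC1 segment carries most of the difference in height, and its share is 69.3% to 71.1% in the control libraries and 52.9% to 54.8% in the mimic libraries.

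As a direct comparison of the paralogs, the HDAC1 to HDAC2 FPKM ratio was 6.43 in the mimic libraries and 15.8 in the control libraries (geometric means). On the log2 scale the ratio was 2.627, 2.756 and 2.670 against 3.978, 3.996 and 3.966, a difference of −1.30 (exact permutation p = 0.1, 0.15 after Benjamini-Hochberg adjustment over 9 ratios). The HDAC1 to HDAC3 ratio differed by −0.98 and the HDAC2 to HDAC3 ratio by 0.32, each with no overlap of the groups and the same smallest p. A transcript length used for all libraries cancels in these differences. Levels of HDAC1 could also include reads of its processed pseudogenes HDAC1P1 and HDAC1P2, which have no entry in the table analysed.

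HDAC5 fell among the class IIa enzymes, with HDAC4 lower in every mimic library but short of the threshold and HDAC7 overlapping between groups. HDAC5 (ENSG00000108840, chr17:44076746-44123638, minus strand) had 9.61, 9.53 and 9.97 FPKM in the mimic libraries and 11.7, 12.4 and 11.8 FPKM in the control libraries. Its groups were apart, and the log2 fold change was −0.28 (95% interval −0.39 to −0.16, adjusted p = 0.0043).

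HDAC4 (ENSG00000068024, chr2:239048168-239400949, minus strand) was the lowest of the 10 genes, with 2.20, 2.27 and 2.53 FPKM against 2.66, 3.05 and 2.57 FPKM. The highest mimic library and the lowest control library lay close together. Its log2 fold change was −0.17 (95% interval −0.36 to 0.01, adjusted p = 0.118), and it was called only under quantile normalization (−0.26, adjusted p = 0.0303) among 13 alternatives. The low level matters on this scale, since adding 1 to FPKM shrinks the difference of a gene near 2 FPKM.

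HDAC7 (ENSG00000061273, chr12:47782722-47819785, minus strand) had 16.2, 13.6 and 15.2 FPKM in the mimic libraries and 14.8, 15.3 and 16.0 FPKM in the control libraries. The mimic libraries spanned the control libraries on both sides. The difference on the log2 scale was −0.03 (95% interval −0.20 to 0.13, adjusted p = 0.733), and it was 0.029 without mimic replicate 2. HDAC7 shares 32 bases with SLC48A1 on the opposite strand, and the sources used here do not say whether counting used strand. Opposite-strand genes without expression values here share 219 bases with HDAC7 (AC004466.1) and 206 with SIN3A (AC068338.2). Such genes also share 106 bases with HDAC3 (AC008781.1) and 303 with MTA1 (AL928654.2).

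Within the class, the HDAC5 to HDAC7 ratio differed by −0.27 on the log2 scale, with no overlap of the groups (exact permutation p = 0.1, adjusted 0.15). The HDAC4 to HDAC7 ratio differed by −0.20 (p = 0.3, adjusted 0.386) and the HDAC4 to HDAC5 ratio by 0.06 (p = 0.4, adjusted 0.45) in the same exact permutation tests, so HDAC4 could not be set apart from either paralog. The summed FPKM of the 3 enzymes was 27.1 ± 1.41 in the mimic libraries and 30.1 ± 0.840 in the control libraries.

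HDAC6 (ENSG00000094631, chrX:48801377-48805661, plus strand for the listed transcript) had 16.6, 18.5 and 17.1 FPKM in the mimic libraries and 12.7, 15.5 and 14.2 FPKM in the control libraries. All the mimic libraries were higher, and the control libraries varied more than for most members. The log2 fold change was 0.29 (95% interval 0.10 to 0.48, adjusted p = 0.0283). The call was lost with libraries scaled to equal sums (adjusted p = 0.0541), and without mimic replicate 2 (0.0896) or 3 (0.0620) or control replicate 1 (0.0625) or 3 (0.0677). Its listed transcript has 7 exons, 583 bases and no annotated 3' end, against 4099 to 4196 bases in the principal transcripts, so its FPKM is not readily set beside those of the other genes.

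**Figure D3:**
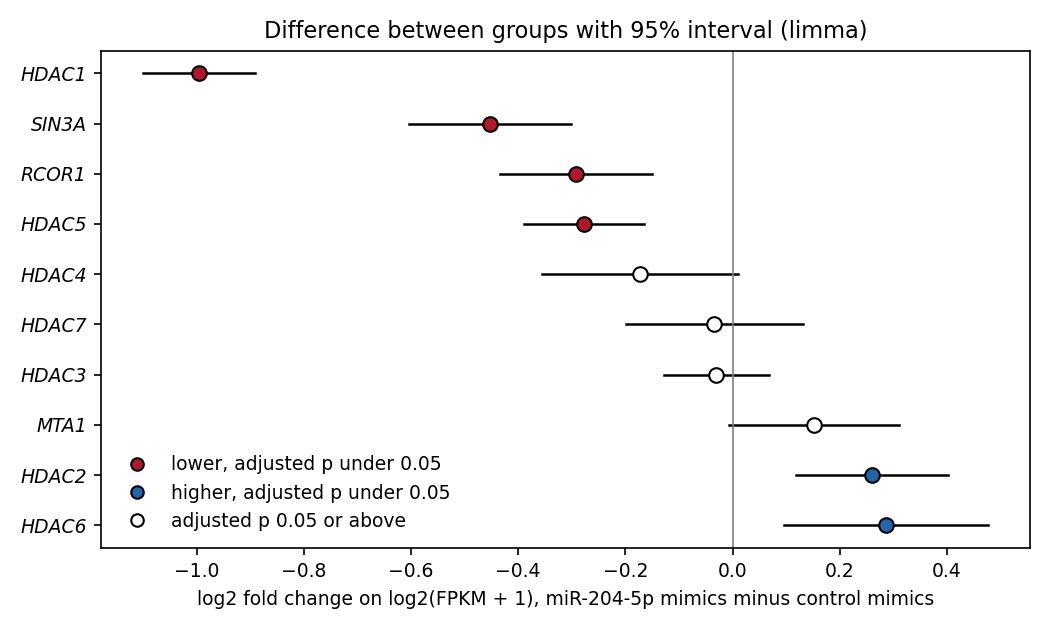
Log2 fold change of each gene (horizontal axis, log2(FPKM + 1), miR-204-5p mimics minus control mimics) with its 95% interval from limma, filled where the adjusted p is under 0.05. HDAC1 at −0.995 stands apart from SIN3A at −0.45, and the intervals of HDAC3, HDAC4, HDAC7 and MTA1 include 0.

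Of the scaffolds, SIN3A and RCOR1 fell and MTA1 did not pass the test. SIN3A (ENSG00000169375, chr15:75369379-75451704, minus strand) had 5.49, 6.15 and 5.72 FPKM in the mimic libraries and 7.84, 8.65 and 8.38 FPKM in the control libraries. The groups were apart, and the mean fell to 69.8% of the control level, the second largest decrease among the members. The log2 fold change was −0.45 (95% interval −0.60 to −0.30, adjusted p = 0.00196).

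RCOR1 (ENSG00000089902, chr14:102592661-102730576, plus strand), the member with the 8mer shown above, had 16.3, 18.2 and 18.3 FPKM in the mimic libraries and 22.2, 20.7 and 22.2 FPKM in the control libraries. Every mimic library was lower. The fitted log2 fold change was −0.29 (95% interval −0.43 to −0.15, adjusted p = 0.00858), smaller in size than that of HDAC1 or SIN3A, whose longest match in the listed transcript is a 7mer-m8.

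MTA1 (ENSG00000182979, chr14:105419820-105470727, plus strand) had 55.9, 47.7 and 52.1 FPKM in the mimic libraries and 46.9, 48.6 and 44.2 FPKM in the control libraries. The groups overlapped through mimic replicate 2. Its log2 fold change was 0.15 (95% interval −0.01 to 0.31, adjusted p = 0.113), and without mimic replicate 2 it was 0.21 and called (adjusted p = 0.0426). The listed MTA1 transcript has 765 coding bases against 2145 in the principal transcript, and it shares 262 bases with TEX22 on the same strand, so part of its reads cannot be assigned to 1 gene with certainty.

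Each scaffold was then set beside a paralog in the same library. The log2 ratio of SIN3A to SIN3B was −1.22, −1.08 and −1.30 in the mimic libraries and −0.998, −0.884 and −0.801 in the control libraries, a difference of −0.31 with no overlap. The MTA1 to MTA2 ratio moved the other way, from −0.28 to 0.23, a difference of 0.51 with no overlap (both exact permutation p = 0.1, adjusted 0.15). MTA1 thus stood below MTA2 in every control library and above it in every mimic library on the per-length scale. For RCOR1 and RCOR3 the mean log2 ratio was 2.32 in both groups (p = 0.9 in the exact permutation test), with a spread of 0.331 (SD) among the mimic libraries.

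The order of the 10 levels changed below HDAC1. An order across genes depends on transcript length, and the listed lengths run from 583 bases for HDAC6 to 9874 for HDAC2. How the order would stand on other lengths was not tested. In control libraries the order by mean FPKM was HDAC1, MTA1, HDAC3, RCOR1, HDAC7, HDAC6, HDAC5, SIN3A, HDAC2 and HDAC4, where MTA1 and HDAC3, HDAC7 and HDAC6, and SIN3A and HDAC2 overlapped as neighbours. In mimic libraries it was HDAC1, MTA1, HDAC3, RCOR1, HDAC6, HDAC7, HDAC2, HDAC5, SIN3A and HDAC4, where RCOR1 and HDAC6, and HDAC2 and HDAC5 overlapped. HDAC1 stood 2.70 times above the next gene in control libraries and 1.204 times above it in mimic libraries, as a ratio of mean FPKM. HDAC2, below SIN3A in the control means, was above SIN3A in every mimic library.

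Genes with a profile like that of HDAC1 were sought among the 11503 other genes with a mean of at least 1 FPKM, by Euclidean distance of centred log2(FPKM + 1) values over the 6 libraries. The nearest were ATL3 (distance 0.0818), PBXIP1 (0.0924), PRRG4 (0.0997), PIK3CB (0.108) and C1orf43 (0.111). Their log2 fold changes were −1.003, −0.97, −0.98, −0.96 and −0.93, and their Pearson correlations with HDAC1 were 0.997 to 0.998. These correlations rest on the difference between the same 2 groups of libraries and are a description.

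Subunits that share complexes with the members were then counted, together with other HDACs, sirtuins, MEF2 factors and acetyltransferases. Of 41 subunits of the SIN3, NuRD, CoREST, NCoR and MiDAC complexes, 15 (36.6%) were lower and 4 (9.76%) higher in the mimic libraries, with a median log2 fold change of −0.15. The 25 remaining genes had 10 lower (5 acetyltransferases, 3 sirtuins, HDAC11 and MEF2D) and 2 higher. Over all 66 genes, 25 (37.9%) were lower and 6 (9.09%) higher, and the median was −0.14. The numbers over all genes were 16.8% lower and 23.9% higher with a median of 0.03, and no test of the list was made. With equal sums, 28 partner genes were lower and 6 higher, beside 2885 and 3080 over all genes. The count of lower genes rested in part on single libraries, with 15 without control replicate 1 and 25 with all libraries, while the count of higher genes stayed at 6 or 7 in each alternative. Of the partner genes named here, 9 lost their call without at least 1 library, with an adjusted p over all alternatives of up to 0.122 for ARID4A, 0.106 for HDAC11, 0.0933 for BRMS1L, 0.0914 for SIN3B, 0.0773 for SIRT2, 0.0666 for SIRT1, 0.0660 for RCOR2, 0.0632 for ELMSAN1 and 0.0543 for CDK2AP1. Each of the 6 libraries ended at least 1 of these calls when left out, and none of the 9 changed direction.

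Among 15 partners in the SIN3 complex, 3 fell and 2 rose. ARID4A (−0.35, adjusted p = 0.0414), BRMS1L (−0.30, adjusted p = 0.0336) and the paralog SIN3B (−0.20, adjusted p = 0.0291, named after its value was seen) were lower. ING1, which reads methylated histone H3, was higher (4.63 against 3.31 FPKM, log2 fold change 0.38, adjusted p = 0.00251). RBBP7, a histone-binding subunit common to SIN3 and NuRD, had 31.3, 34.5 and 33.5 FPKM in the mimic libraries and 27.5, 22.1 and 21.4 FPKM in the control libraries, a log2 fold change of 0.48 (adjusted p = 0.00869).

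Among 12 NuRD partners, 5 fell and RBBP7 alone rose. MTA2 had 42.8, 45.2 and 44.5 FPKM in the mimic libraries and 57.4, 56.1 and 56.1 FPKM in the control libraries, with wide separation of the groups (log2 fold change −0.35, adjusted p = 0.000613). CDK2AP1 went from 14.1 to 9.998 FPKM (−0.46, adjusted p = 0.0151), a call lost without mimic replicate 2. CHD4, the remodelling ATPase of NuRD, was also lower (60.6 against 71.1 FPKM, log2 fold change −0.23, adjusted p = 0.00463), and is named after its values were seen.

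The CoREST list of 9 partners had 4 lower genes and 1 higher gene. ZMYM2 (12.6 against 16.2 FPKM, log2 fold change −0.34, adjusted p = 0.00589) and RCOR2 (2.43 against 3.37 FPKM, −0.35, adjusted p = 0.0205) were lower. HMG20B was higher (103 against 91.2 FPKM, 0.17, adjusted p = 0.0106). KDM1A, the demethylase that RCOR1 joins to HDAC1, is also named after its values were seen, with 32.2 against 37.4 FPKM (−0.21, adjusted p = 0.00548).

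In the HDAC3 complexes, TBL1XR1 and NCOR1 fell and GPS2 rose, of 4 NCoR partners analysed. TBL1XR1, which helps exchange corepressors for coactivators, had 8.15, 9.70 and 7.66 FPKM in the mimic libraries and 14.6, 14.1 and 14.2 FPKM in the control libraries. Its log2 fold change was −0.69 (adjusted p = 0.00108), beside −0.03 for HDAC3 itself. NCOR1 had a log2 fold change of −0.28 (adjusted p = 0.00883) and GPS2 one of 0.31 (adjusted p = 0.00314). Of 3 MiDAC partners ELMSAN1 was lower (−0.32, adjusted p = 0.0191), and of 4 MEF2 factors MEF2D was lower (6.11 against 9.08 FPKM, −0.51, adjusted p = 0.00414).

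Among the 4 remaining zinc-dependent HDACs, HDAC11 was lower (7.78 against 9.83 FPKM, log2 fold change −0.31, adjusted p = 0.0374). HDAC8 had a log2 fold change of −0.14 (adjusted p = 0.0768) and HDAC10 one of 0.00066 (adjusted p = 0.994). HDAC9 had 2.50, 2.48 and 1.28 FPKM against 0.776, 1.48 and 0.620 FPKM, overlapping groups with a log2 fold change of 0.65 (adjusted p = 0.0548). Of 7 sirtuins, the NAD-dependent deacylases, SIRT1 (−0.25, adjusted p = 0.0236), SIRT2 (−0.23, adjusted p = 0.0245) and, named after its value was seen, SIRT7 (−0.21, adjusted p = 0.00916) were lower and the mitochondrial SIRT5 was higher (0.44, adjusted p = 0.00591).

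**Figure D4:**
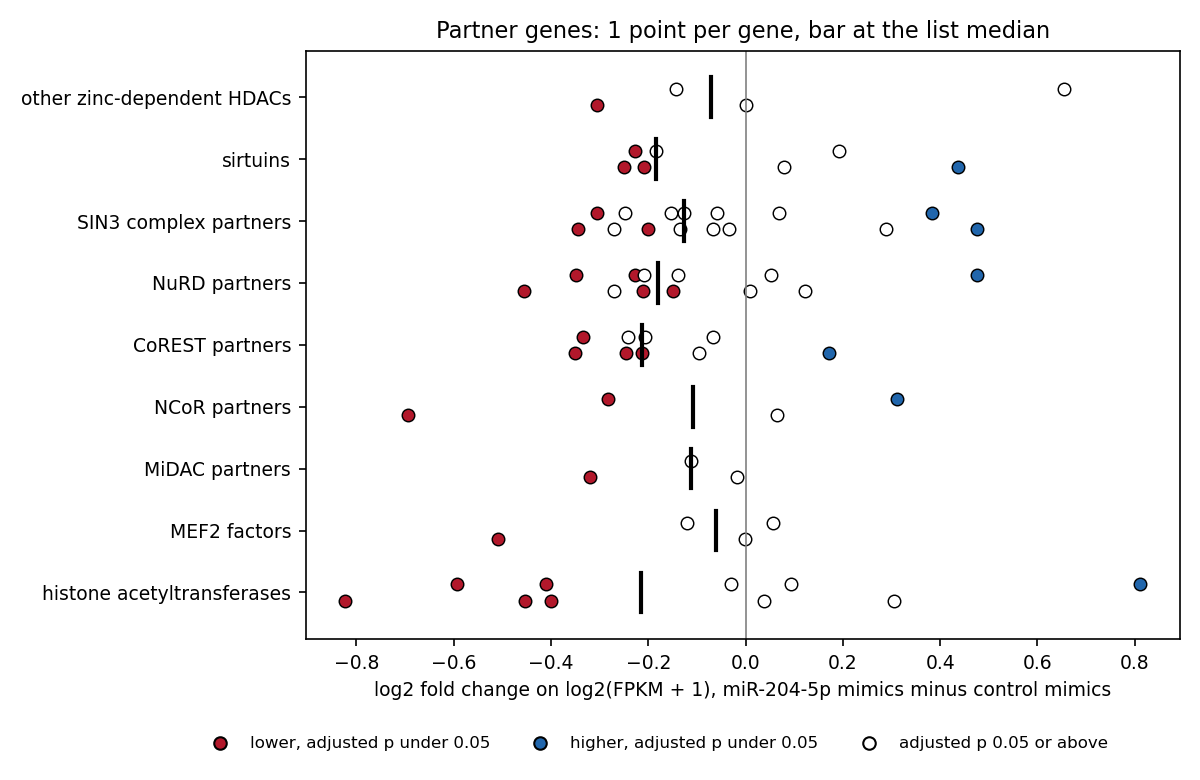
Log2 fold change (horizontal axis, log2(FPKM + 1), miR-204-5p mimics minus control mimics) of each partner gene by list, filled where the limma adjusted p is under 0.05, with a bar at the list median. TBL1XR1 at −0.69 and KAT2B at −0.82 lie farthest to the left, HAT1 at 0.81 lies farthest to the right, and RBBP7 is drawn in both lists that hold it.

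The acetyltransferases, which oppose HDACs, moved in both directions, with 5 of 10 lower and 1 higher. KAT2B had 2.76, 2.35 and 2.14 FPKM in the mimic libraries and 4.83, 5.27 and 5.00 FPKM in the control libraries (log2 fold change −0.82, adjusted p = 0.000578). CREBBP, a broad transcriptional coactivator, went from 11.1 to 7.05 FPKM (−0.59, adjusted p = 0.00136). HAT1, which acetylates newly made histone H4, had 27.2, 27.2 and 23.0 FPKM in the mimic libraries and 12.5, 14.1 and 16.2 FPKM in the control libraries. All the HAT1 mimic values were higher, with a log2 fold change of 0.81 (adjusted p = 0.00151).

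Last, 6 genes that textbooks describe as raised by HDAC inhibitors were read, of which 2 fell and 1 rose. Over all genes 16.8% were lower and 23.9% higher, and no test of this list was made. CDKN1A, the cell cycle inhibitor p21, had 30.8, 26.5 and 28.4 FPKM in the mimic libraries and 44.3, 41.6 and 40.3 FPKM in the control libraries (log2 fold change −0.54, adjusted p = 0.00102). TXNIP, an inhibitor of thioredoxin, went from 584 to 407 FPKM (−0.52, adjusted p = 0.00196). CDH1, encoding E-cadherin, rose from 28.2 to 37.2 FPKM (0.39, adjusted p = 0.000618), while CLU (0.45, adjusted p = 0.0873), GSN (0.05, adjusted p = 0.492) and H1F0 (−0.04, adjusted p = 0.554) did not pass. In the longest 3'UTR, 3 of these 6 genes had a seed match of 7 or more bases, against 27.1% of all genes with a 3'UTR. TXNIP had an 8mer, and CLU and H1F0 had a 7mer-m8. Whether those sites are used was not tested.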

How the data were processed

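RNA from UM-SCC1 cells was sequenced from TruSeq libraries on Illumina HiSeq machines, and the submitters' processing notes name HISAT2, StringTie and hg38, without versions. FPKM values per gene, computed by the authors for each library, were used as deposited. The log2 ratios, p-values and FDR of the authors' own comparison (edgeR) are in the deposited table and were not used. Transcript lengths, exon numbers and coordinates (other values) are as deposited.

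For all 14959 genes, log2(FPKM + 1) was fitted with limma 3.58.1 (eBayes with trend, R 4.3.3), with two-sided tests and Benjamini-Hochberg adjustment over all genes. The threshold was an adjusted p of 0.05, and a fold change on this scale understates the change of low genes. Ratios of FPKM were taken within libraries and tested by exact permutation (scipy 1.17.1). The script was tested on simulated data. The deposited table holds no counts, and whole multiples of the inferred read step (tolerance 0.05 of a step) made up just 11.0% to 32.8% of low values, so no count test was made. Seed matches were read from GENCODE 29 transcripts of GRCh38, and matches in the 3'UTR of the listed transcript were added after seeing the data.

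Members and lists were chosen with earlier results of these data known. All members are named, with HDAC8 to HDAC11 and, from each partner list, up to 2 genes with the lowest and 2 with the highest log2 fold change among those called with a mean of at least 1 FPKM. The 5 genes nearest HDAC1 in profile are named too. SIN3B, CHD4, KDM1A and SIRT7 were named outside these rules after their values were seen, and each was called lower. Alternatives were a pseudocount of 0.1, a minimum mean of 1 FPKM, equal sums, equal medians, quantile normalization, eBayes without trend, a replicate block and leaving out each library. 1 partner gene is not reported here.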

Additional observations from a re-analysis of the deposited data

How the results depend on the processing

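Over 13 alternatives for each of the 10 genes, 122 of 130 fits kept the direction and the side of the threshold. The exceptions were 5 for HDAC6, whose call was lost, 1 each for HDAC4 and MTA1, which gained a call, and 1 for HDAC7, whose direction turned. Leaving out a library moved the HDAC7 log2 fold change between −0.087 and 0.0294 and the RCOR1 to RCOR3 difference between −0.12 and 0.19, and the cause was not tested. HDAC1 kept its call throughout, from −1.04 to −0.96. From 5 to 7 members, 21 to 34 partner genes and 4971 to 6098 genes were called, and the HDAC1 to HDAC2 difference without a library was −1.33 to −1.27. The replicate numbers showed no visible pairing of libraries: same-numbered deviations correlated at −0.04, −0.02 and −0.11 over 11504 genes. Such correlations cannot tell whether same-numbered libraries came from the same experiment. A replicate block called 5096 genes, 6 members (4 lower and 2 higher) and 23 partner genes, of which 16 were lower and 7 higher. Of 21 partner genes named by the rule, 13 kept their call in every alternative and none changed direction. Absolute levels depend on the listed transcript length, and with 3 libraries a group the exact tests could not go below 0.1, or 0.2 without a library.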
